A study of Mus musculus with 24 samples.

Results

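The last interval of an untreated embryonic stem cell differentiation, day 8 to day 12, is described here. Its members are the 3 arrays of untreated embryoid bodies (EBs, floating and later plated aggregates of differentiating stem cells) of day 8 and the 3 of day 12, 6 of the 24 arrays of the series. They were taken by their labels alone, and no measured value chose them. All cells came from 46C, a mouse embryonic stem cell line that carries a green fluorescent protein reporter in its Sox1 locus, so all cultures derive from a single line. Undifferentiated cells were plated with LIF on day 1, moved to low-attachment dishes on day 3 and to tissue culture dishes on day 7. The medium was changed on day 8 from serum-containing embryonic stem cell medium to serum-free ITS medium, so that the day 12 cultures differ from the day 8 cultures in medium as well as in age, and the effects of the medium and of time cannot be told apart. The other arrays used for comparison are untreated EBs of day 4 and day 6 and EBs of day 8 and day 12 that had been kept from day 3 to day 8 in cyclosporin A (1 ug/ml) and FK506 (100 ng/ml), both blockers of the phosphatase calcineurin. Each group held 3 arrays from independent experiments.

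Embryonic stem cells are held in the pluripotent state by a network of transcription factors around Pou5f1 (Oct4), Sox2 and Nanog. When they leave it they pass through a state like the epiblast of the early embryo, and Nodal, Wnt and fibroblast growth factor signals then direct part of them towards primitive streak, mesoderm and endoderm. Cells that escape these signals turn into neural progenitors, in which SoxB1, Pax6 and Notch signalling maintain the precursor pool while proneural helix-loop-helix factors start neurons. EBs hold many lineages side by side, and their plated outgrowths are known for beating muscle, fibroblast-like stroma and neurons.

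Values are log2 RMA levels of 1 probe set per gene for 19938 genes. A difference is day 12 minus day 8 on the log2 scale, so that 1 is a 2-fold rise, and is given with its standard error (SE). Adjusted p-values come from limma's moderated test with Benjamini-Hochberg adjustment across all genes, and only genes under 0.05 are described as having risen or fallen. Where 0 genes of a list or set are given in a direction, limma also found 0 there at an unadjusted p under 0.05, except for 1 primitive streak gene higher and 1 cardiac gene lower. The median level per array, over all 35556 probe sets and not the 19938 genes alone, lay between 7.83 and 7.88 in the 6 arrays. Arrays of the same day correlated at 0.994 or above across genes, and arrays of different days at 0.967 to 0.975. In bulk RNA of this kind, fewer cells of a type and less RNA per cell cannot be told apart. A level cannot be compared between genes on an array, so only differences are compared.

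Marker genes were read against the label of untreated, differentiating EBs. All 5 pluripotent cell markers (Pou5f1, Nanog, Zfp42, Utf1, Tdgf1) and all 5 primitive streak markers (Mixl1, Eomes, Evx1, Mesp1, Gsc) fell, while all 5 neural progenitor markers (Sox1, Pax6, Nes, Fabp7, Hes5) and 5 of 6 neuron markers rose. The mean level of the pluripotent markers lay between 11.2 and 11.5 in the day 8 arrays and between 8.28 and 8.54 in the day 12 arrays. That of the neuron markers lay between 8.19 and 8.40 on day 8 and between 9.67 and 10.2 on day 12. Also higher were 6 of 7 mesenchyme and 5 of 6 cardiac markers. None of the 2 measured trophoblast markers and only Mbp of the 4 measured astrocyte and oligodendrocyte markers passed the test, a call lost without any 1 of 5 arrays (adjusted p = 0.0529 to 0.14 without day 8 replicate 2 or 3 or day 12 replicate 1 or 2 or 3). The calls of Sox1 and Stmn2 among the neural markers were lost without some arrays too and are given with their genes.

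From day 8 to day 12, 3749 genes rose (18.8% of those tested) and 3965 fell (19.9%). Large changes went mostly upward: 648 genes rose at least 2-fold (3.25%) and 243 fell at least 2-fold (1.22%), so that 72.7% of the changes of this size were rises. Of the changes of at least 4-fold, 117 were rises and 60 were falls. The median difference over all genes was -0.06. Rises made up 48.6% of all calls, but 31.3% when each array was centred on its median, which moves the median of all genes to -0.13, so the balance of small rises and falls depends on the scaling.

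**Figure D1:**
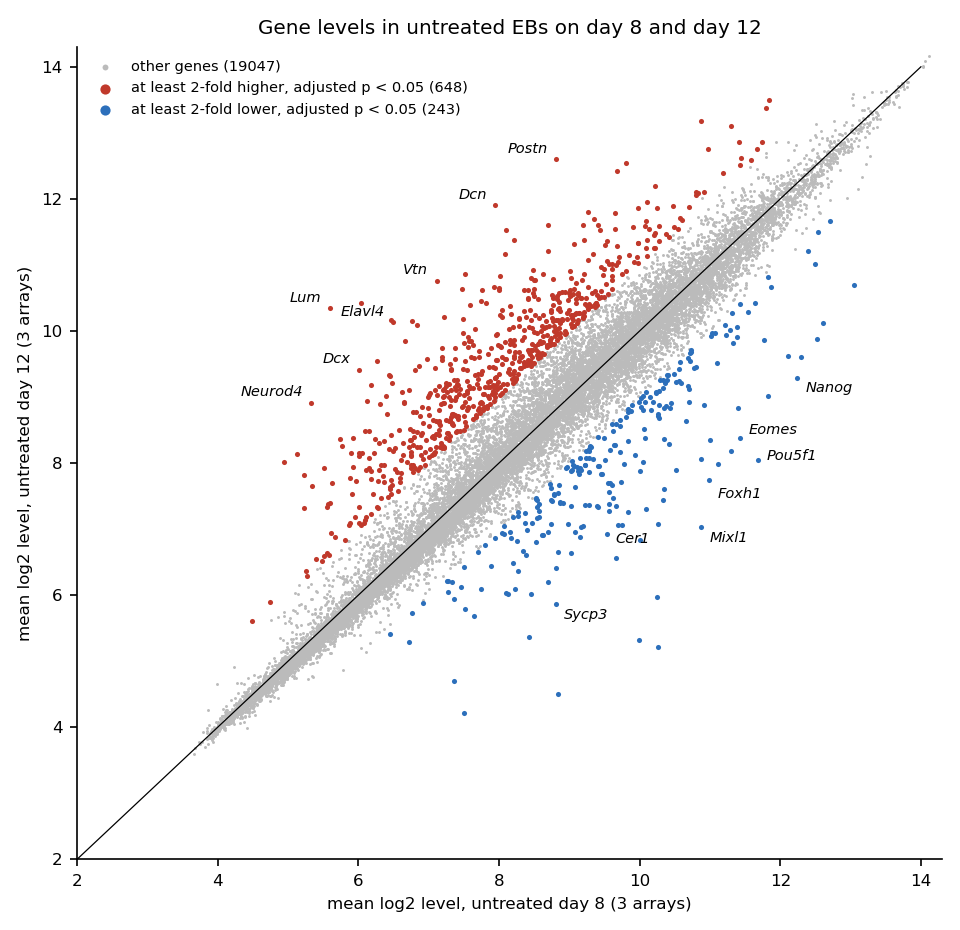
Mean log2 level of each of 19938 genes in untreated EBs on day 8 (horizontal axis) and day 12 (vertical axis), each the mean of 3 arrays, with the line of equal level. Red points are the 648 genes at least 2-fold higher and blue points the 243 at least 2-fold lower at an adjusted p under 0.05, and Lum and Postn stand far above the line while Mixl1 and Pou5f1 stand far below it.

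Genes of connective tissue and of neurons led the rises. Lum, which encodes the collagen-binding proteoglycan lumican, read 6.16, 5.22 and 5.39 in the 3 day 8 arrays and 10.68, 9.81 and 10.56 in the 3 day 12 arrays, a rise of 4.76 ± 0.49 (SE) or 27.1-fold (adjusted p = 8.85e-08). Dcn, the related proteoglycan decorin, went from 8.14, 7.72 and 7.98 to 12.33, 11.31 and 12.07 (15.5-fold, adjusted p = 3.13e-09). Postn, a matricellular protein of the periosteum, heart valves and stroma, went from 10.41, 7.32 and 8.68 to 12.67, 12.47 and 12.65 (13.8-fold). Of these genes the day 8 arrays of Postn were the most spread. The neuronal genes of the group were tighter. Elavl4, a neuronal RNA-binding protein, read 6.55, 6.47 and 6.47 on day 8 and 10.09, 9.98 and 10.34 on day 12 (12.5-fold). Neurod4, a proneural transcription factor, read 5.39, 5.24 and 5.36 and then 8.98, 8.47 and 9.28 (12-fold). Dcx, the microtubule protein of migrating young neurons, read 5.99, 5.96 and 6.05 and then 9.76, 8.91 and 9.57 (10.7-fold). A lowest day 12 array above the highest day 8 array was a condition for being named here. It held for 4514 of the 19938 genes. The other members of the 15 largest rises were Nrn1 (3.70), Vtn (3.65), Plagl1 (3.43), Clvs1 (3.40), Ednrb (3.35), Epha3 (3.29), Erbb4 (3.26), Rfx4 (3.18) and Pou3f4 (3.16), with the log2 difference in brackets. Nrn1 promotes neurite growth, Vtn is the adhesion protein vitronectin, Plagl1 is an imprinted zinc finger regulator, Ednrb and Epha3 are receptors for endothelin and ephrins, Erbb4 is a neuregulin receptor, and Rfx4 and Pou3f4 are transcription factors of the neural tube. The predicted gene Gm32061 would stand between Lum and Dcn with 4.39 and was passed over by the naming rule.

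Genes of pluripotency and of the primitive streak led the falls. Mixl1, a homeobox gene of the primitive streak, read 10.16, 11.06 and 11.40 on day 8 and 7.41, 6.85 and 6.81 on day 12, a fall of 14.4-fold (adjusted p = 5.28e-08). Pou5f1 went from 11.49, 11.90 and 11.65 to 8.44, 7.88 and 7.81 (12.4-fold, adjusted p = 1.08e-10). Nanog went from 12.08, 12.52 and 12.11 to 9.54, 9.39 and 8.94 (7.7-fold). Both pluripotency factors thus lay more than 2 log2 units lower in every day 12 array than in any day 8 array. Cyp26a1, the enzyme that clears retinoic acid in the early embryo, read 10.44, 10.98 and 11.18 and then 7.94, 8.48 and 7.75 (7.02-fold). The others of the 15 largest falls were Foxh1 (-3.24), Cer1 (-3.18), Zfp980 (-3.17), Dppa2 (-3.12), Utf1 (-3.12), Zfp640 (-3.10), Zfp979 (-3.05), Eomes (-3.05), Sycp3 (-2.95), Fgf5 (-2.89) and Pim2 (-2.81). Foxh1 is the DNA-binding partner of the Nodal mediators, Cer1 a secreted Nodal antagonist, Dppa2 and Utf1 chromatin factors of pluripotent cells, Eomes a T-box factor of the streak and Pim2 a kinase. Zfp980, Zfp640 and Zfp979 are zinc finger genes with close copies in the mouse genome, so their probe sets may share signal and the 3 values cannot be counted as separate events. The 3 single-symbol probe sets of Zfp640 gave -3.07, -3.10 and -3.08.

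The untreated days before this interval place the changes in time. Dcx stayed between 5.84 and 6.0 in its means of day 4, day 6 and day 8, Neurod4 between 5.11 and 5.33, and Elavl4 between 6.37 and 6.50, before the rise on day 12. Postn had already gone from a mean of 6.06 on day 6 to 8.81 on day 8. Mixl1 followed an arc: its mean was 8.09 on day 4, 11.69 on day 6 and 10.88 on day 8, and its day 12 mean of 7.02 lay below the day 4 mean. Cer1 (means 7.20, 10.25, 10.26 and 7.07 on the 4 days) and Cyp26a1 (7.37, 10.53, 10.87 and 8.06) also had their highest means on day 6 and day 8. The means of Pou5f1 were 12.75, 12.43 and 11.68 on day 4, day 6 and day 8 and 8.04 on day 12.

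**Figure D2:**
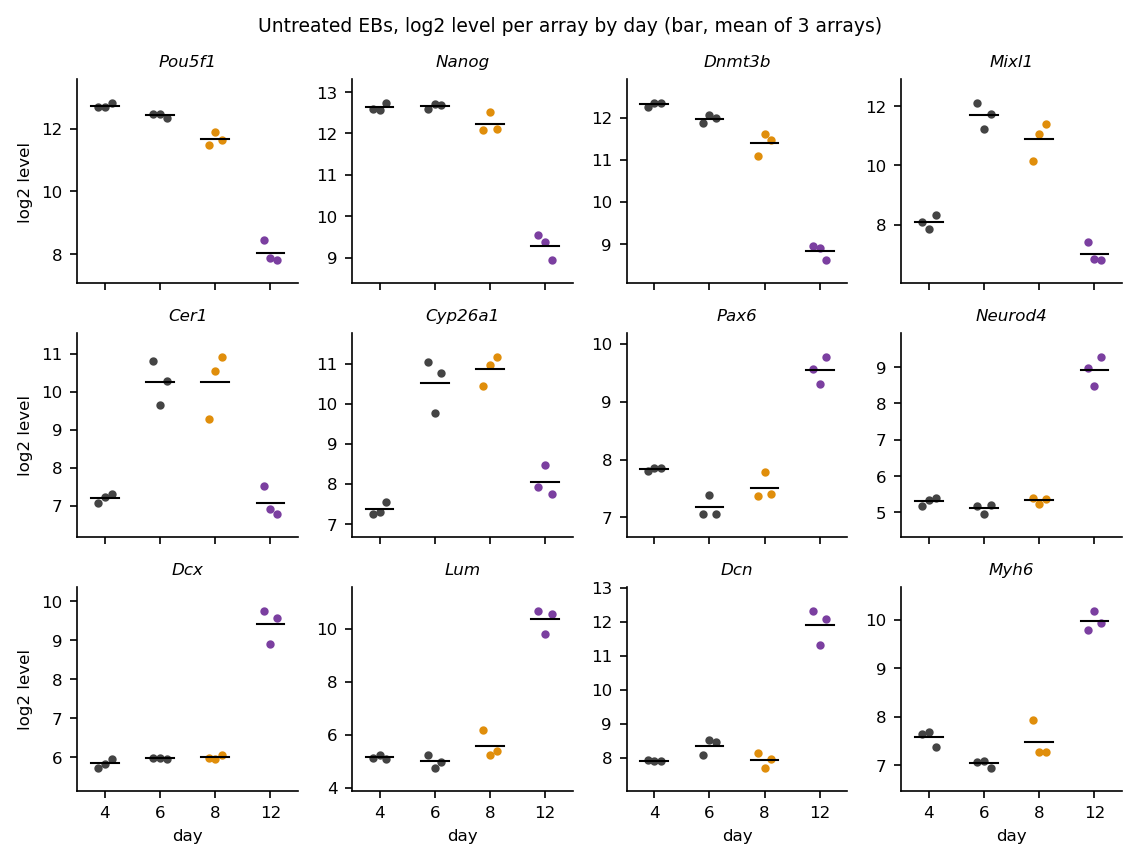
Log2 level of 12 genes in each untreated array on day 4, day 6, day 8 (orange) and day 12 (purple), with a bar at the mean of the 3 arrays and a separate vertical axis for each gene. Dcx and Neurod4 lie flat until day 8 and are high on day 12, Mixl1, Cer1 and Cyp26a1 are high on day 6 and day 8 alone, and Pou5f1, Nanog and Dnmt3b are low on day 12.

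Nearly the whole pluripotency list fell. Of 30 measured genes of core and naive pluripotency, 29 fell and 0 rose, with a median difference of -1.26 against -0.06 for all genes. Beside Pou5f1, Nanog, Dppa2 and Utf1, the members with the smallest p were Tfcp2l1, a factor of naive cells (-1.37 ± 0.12), and Dppa5a, an RNA-binding protein of pluripotent cells (-2.49 ± 0.21). Klf4 and Klf2, which are also expressed in endothelium and epithelium, fell by 0.43 and 0.66. The exception was Sox2, which is shared by pluripotent and neural progenitor cells and read 11.11, 11.50 and 11.25 on day 8 and 11.58, 11.71 and 11.73 on day 12 (0.39 ± 0.23, adjusted p = 0.184). Its arrays of the 2 days did not overlap, but the difference missed the threshold. It passed, as 1 rise of the list, where only the 6 arrays compared were fitted (adjusted p = 0.0181) and with a replicate block on them (adjusted p = 0.0132).

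Genes of the primed epiblast mostly fell, and those of DNA methylation went both ways. Of 17 primed epiblast genes, 11 fell and 3 rose (median -0.79). Dnmt3b, a de novo DNA methyltransferase, read 11.09, 11.62 and 11.48 and then 8.95, 8.92 and 8.63, a fall of 5.91-fold (adjusted p = 1.13e-09), and its cofactor Dnmt3l fell by 2.31. Dnmt3a, the other de novo enzyme, rose by 0.29 ± 0.07 (adjusted p = 0.0036), and the maintenance enzyme Dnmt1 differed by 0.02 (adjusted p = 0.834). Among the enzymes that oxidise methylcytosine, Tet1 fell by 0.37 (adjusted p = 0.0671 without day 8 replicate 2), while Tet2 and Tet3 rose by 0.72 and 0.95. In the whole DNA methylation list 5 of 16 genes rose and 6 fell, against 18.8% and 19.9% of all genes.

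Ligands and feedback genes of the Nodal pathway, which patterns the streak, fell. Of 14 measured genes 9 fell, 8 of them at least 2-fold, and 3 rose, with a median of -1.77. The ligands Nodal (-2.02) and Gdf3 (-1.51), the co-receptor Tdgf1 (-2.68), and the antagonists and targets Lefty1 (-2.45), Lefty2 (-2.50) and Cer1 fell. Lefty2 read 8.46, 8.97 and 8.64 on day 8 and 6.43, 6.01 and 6.13 on day 12. The receptors Acvr2a (0.66) and Acvr2b (0.26, adjusted p = 0.0829 to 0.113 without day 8 replicate 1 or day 12 replicate 2) and the mediator Smad3 (0.61) were the members that rose. Smad2 (0.14) and the receptor Acvr1b (0.05) did not pass the test. 

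Primitive streak and mesendoderm genes mostly fell. Of 23 measured, 21 fell (median -0.86). Beside Mixl1 and Eomes the largest falls were those of Lhx1 (-2.12), Aplnr (-2.03), the apelin receptor of early mesoderm, and Mesp1 (-1.77), a factor of the first cardiac mesoderm. Fgf8, a streak growth factor, fell by 1.16. Foxa2 (0.41) and Fgf17 (-0.32) did not pass. Foxa2 passed as 1 rise of the list where only the 6 arrays compared were fitted (adjusted p = 0.0156) and with a replicate block on them (adjusted p = 0.0135). In the interval from day 4 to day 6 the median of the same list had been 0.85, on arrays not used in the present comparison.

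Germline and meiosis genes, many of which are expressed in pluripotent cells, were lower on day 12. Of 30 measured, 20 fell and 1 rose (median -0.37, or -0.765 for members above the 40th percentile of level). Sycp3, a protein of the meiotic chromosome axis, read 8.51, 9.17 and 8.75 and then 5.80, 6.20 and 5.58 (7.72-fold lower). The piRNA pathway genes Tdrd12 (-2.27), Mael (-2.14), Rnf17 (-1.74) and Ddx4 (-1.45) fell with it. Tdrkh, another Tudor domain gene of that pathway, was the member that rose (1.15). Stra8 (-0.18), which starts meiosis, did not pass.

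The largest falls on the arrays were those of Mir302a, Mir302b, Mir302c and Mir302d of the miR-302 microRNA cluster, which the naming rule passed over as small RNA genes and which was chosen here after its values were seen. The cluster lies on chromosome 3 within 580 bases, at chr3:127545228-127545807 of GRCm38.p6, inside the span of Larp7, and is known as a direct target of Pou5f1 and Sox2 that promotes the rapid cell cycle of stem cells. The array's probe sets read the hairpin or its primary transcript in total RNA, not the mature strand. Mir302c read 9.45, 10.76 and 10.55 on day 8 and 5.53, 5.05 and 5.07 on day 12, a fall of 32.9-fold (adjusted p = 2.21e-07). Mir302a (-4.66), Mir302b (-4.34), Mir302d (-4.28) and Mir367 (-3.29, adjusted p = 3.96e-05) fell too, and the arrays of the 2 days did not overlap in any of the 5. Over all 19938 genes, every day 12 array lay below every day 8 array in 5507. Day 8 replicate 1 was the lowest of the day 8 arrays in all 5. Larp7 itself fell by 0.49, on 2 probe sets that gave -0.49 and -0.52. The mature strands are shown because they carry the shared seeds, bases 2 to 8 counted from the 5′ end, written in capitals. The RefSeq table used held no miR-302a-3p record, and its miR-302c-3p record begins 1 base later than the others, so that the same bases AAGUGCU start at its first base.
miR-302b-3p: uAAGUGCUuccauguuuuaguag
miR-302c-3p: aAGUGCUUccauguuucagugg
miR-302d-3p: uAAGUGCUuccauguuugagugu
miR-367-3p: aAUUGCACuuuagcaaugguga
miR-363-3p: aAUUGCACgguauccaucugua
The seed of miR-367-3p, AUUGCAC, is shared by miR-363-3p, which comes from a cluster on chromosome X. Mir363 fell as well, from 6.61, 8.18 and 7.77 to 5.86, 5.73 and 5.77 (-1.73, adjusted p = 0.000999). Mir92-2, a neighbour of Mir363 whose miR-92a-3p has the same seed, differed by -0.30 (adjusted p = 0.113).

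Single microRNA genes of the miR-181, miR-99, let-7, miR-218 and miR-219 families rose, also chosen after their values were seen. Of 300 microRNA genes with a probe set of their own, 37 rose and 25 fell (median 0.00). Both shares were smaller than the 18.8% and 19.9% of all genes. Of the same 300 genes 9 rose and 6 fell at least 2-fold, where 3.25% and 1.22% of all genes did so. Mir181b-1 read 5.89, 6.29 and 6.09 and then 9.02, 8.12 and 8.29 (5.24-fold), and Mir181b-2, the second genomic copy of the same mature strand, rose by 1.49. Mir219a-2, of a microRNA known from neural precursors and oligodendrocytes, read 7.35, 7.35 and 7.37 and then 9.24, 9.26 and 9.29 (3.75-fold), the tightest of the group. Mir99a rose by 1.81 and Mirlet7c-1, 657 bases further along chromosome 16, by 1.12. On chromosome 9 Mir100 (0.89), Mirlet7a-2 (0.28, adjusted p = 0.0641 to 0.0809 without day 8 replicate 1 or 2 or day 12 replicate 2) and Mir125b-1 (0.60, adjusted p = 0.0928 without day 12 replicate 1), which lie in the span of Mir100hg (2.26), rose together. Mir218-1 and Mir218-2, which lie inside the axon guidance genes Slit2 and Slit3, rose by 1.40 and 0.59. Slit2 rose by 1.42 and Slit3 by 0.45 (the latter with adjusted p = 0.0528 to 0.0707 without day 8 replicate 2 or day 12 replicate 2). Nr6a1, whose span holds Mir181a-2 and Mir181b-2, gave -0.80, and Cercam, whose span holds Mir219a-2, gave 0.30. A microRNA gene and the gene whose span holds it thus did not always move together. Spans were matched by position alone and strands were not compared, so a shared transcript is not implied. Mir181c (0.53) and Mir181a-1 (0.32, adjusted p = 0.0585 to 0.18 without day 8 replicate 1 or 2 or day 12 replicate 1 or 3) rose, while Mir181a-2 (0.23), Mir181d (-0.22), Mir99b (0.08), Mir219a-1 (0.00) and Mir125b-2 (0.17) did not pass. Nor did the let-7 genes Mir98 (-0.16), Mirlet7a-1 (0.01), Mirlet7d (0.27), Mirlet7e (0.19), Mirlet7f-1 (0.19), Mirlet7f-2 (-0.06), Mirlet7g (0.23) and Mirlet7i (-0.09). Of these, Mir181a-2 passed with adjusted p = 0.0324 without day 12 replicate 2, Mir181d with adjusted p = 0.0482 without day 8 replicate 3 and Mirlet7g with adjusted p = 0.0187 without day 12 replicate 3. The mature strands below show that Mir99a of chromosome 16 and Mir100 of chromosome 9 share the seed ACCCGUA.
miR-99a-5p: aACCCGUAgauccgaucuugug
miR-100-5p: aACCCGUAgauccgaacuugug
let-7c-5p: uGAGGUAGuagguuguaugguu
miR-181b-5p: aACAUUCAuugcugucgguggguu
miR-218-5p: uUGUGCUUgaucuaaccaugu
miR-219a-5p: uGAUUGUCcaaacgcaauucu

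**Figure D3:**
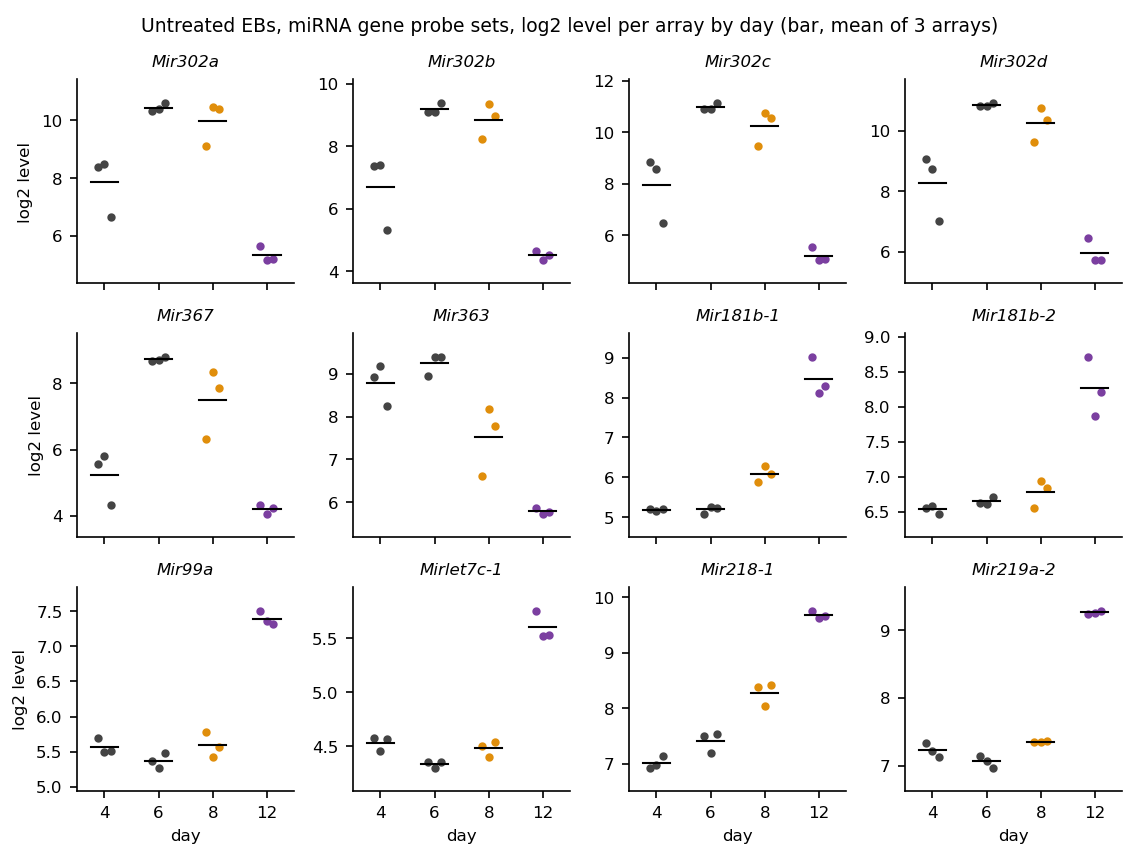
Log2 level of 12 microRNA gene probe sets in each untreated array on day 4, day 6, day 8 (orange) and day 12 (purple), with a bar at the mean of the 3 arrays and a separate vertical axis for each gene. The 5 members of the miR-302 cluster are high on day 6 and day 8 and low on day 12, and Mir99a, Mirlet7c-1 and Mir219a-2 are flat until day 8 and high on day 12.

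Promoters of the fallen genes were searched for the octamer ATGCAAAT, to which POU factors such as the protein of Pou5f1 bind, among 21 motifs looked at. In windows of 300 bases, 250 before to 50 after the start of each gene, on either strand, it stood in 9 of 244 windows of the genes at least 2-fold lower (3.69%), in 2.38% of those at least 2-fold higher and in 1.59% of all 19116 windows. The E-box CAGCTG, which proneural factors can bind, stood in 18.3% of windows of the genes at least 2-fold higher, 18.9% of those lower and 16.3% of all. The windows of Zfp42 (Rex1, a zinc finger gene of naive cells, which went from 8.99, 9.16 and 8.76 to 7.16, 7.02 and 7.06) at chr8:43306960-43307259 (minus strand) and of Pim2 (from 11.35, 12.22 and 11.89 to 9.18, 8.98 and 8.86) at chrX:7878056-7878355 (plus strand) of GRCm38.p6, from RefSeq, are shown as examples with the octamer or its complement in capitals. A match is a description of the letters and not a binding site.
Zfp42: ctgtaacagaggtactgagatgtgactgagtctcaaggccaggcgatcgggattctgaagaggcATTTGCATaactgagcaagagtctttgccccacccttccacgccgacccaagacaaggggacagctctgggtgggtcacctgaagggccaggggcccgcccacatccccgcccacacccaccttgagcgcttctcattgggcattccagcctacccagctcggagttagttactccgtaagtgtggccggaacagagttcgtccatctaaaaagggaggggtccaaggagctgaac
Pim2: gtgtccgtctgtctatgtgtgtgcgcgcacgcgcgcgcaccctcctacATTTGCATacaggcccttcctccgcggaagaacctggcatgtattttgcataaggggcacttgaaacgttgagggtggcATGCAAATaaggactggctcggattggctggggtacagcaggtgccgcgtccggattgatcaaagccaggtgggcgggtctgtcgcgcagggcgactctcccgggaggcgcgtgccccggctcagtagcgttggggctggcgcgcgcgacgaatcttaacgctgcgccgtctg

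Neural progenitor genes rose as a group. Of 30 measured, 22 rose, 17 of them at least 2-fold, and 2 fell, with a median of 1.09. Pax6, a paired-box factor of the forebrain and spinal cord, read 7.37, 7.78 and 7.40 on day 8 and 9.56, 9.31 and 9.78 on day 12 (4.09-fold, adjusted p = 1.4e-09). Pou3f4 read 8.21, 8.11 and 8.34 and then 11.57, 11.17 and 11.40 (8.96-fold). Fabp7, a lipid carrier of radial glia, rose by 2.30, the Notch effector Hes5 by 1.22, and Zic1 by 2.17. Sox1, whose locus carries the reporter in this line, moved little, from 8.83, 8.92 and 8.87 to 9.16, 8.99 and 9.20 (0.24 ± 0.09, adjusted p = 0.0271), and the call was lost in 4 of the 6 fits that left out 1 array (adjusted p = 0.0558 to 0.109 without day 8 replicate 1 or 3 or day 12 replicate 1 or 3) and under quantile normalization or median centring. Zic2 (-0.91) and Zic5 (-0.99), which are neighbouring genes also expressed in the epiblast, fell while Zic1 rose, the call of Zic5 with adjusted p = 0.056 to 0.0744 without day 8 replicate 2 or 3 or day 12 replicate 2 or 3, so that the falls counted 1 without day 8 replicate 2 or 3 or day 12 replicate 2 or 3. Sox3 (0.06), Hes1 (0.09), Cdh2 (0.21), Gli3 (0.04) and Pou3f1 (-0.08) did not pass the test.

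The proneural genes, which commit progenitors to neurons, had the highest median of the 48 lists, 1.41. Of 21 measured, 14 rose, 13 of them at least 2-fold, and 0 fell. Nhlh1, a factor of newborn neurons, read 6.17, 6.20 and 6.15 and then 9.25, 8.94 and 9.37 (8.06-fold). Neurog1 and Neurog2, which act first in many neuron types, rose by 1.59 and 1.51, and Neurod1, Ebf3 and Ebf2, which act later, by 2.82, 2.74 and 2.33. Olig2, a factor of motor neuron and oligodendrocyte precursors, rose by 1.41, while Olig1 differed by 0.00. Neurod2 (-0.02) and Neurod6 (-0.11), which mark maturing cortical neurons, and Ptf1a (-0.06) did not pass.

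Structural and RNA-binding genes of neurons rose in 23 of 30 cases and fell in 2 (median 0.89). Tubb3, the neuronal beta tubulin, read 7.57, 7.52 and 7.43 and then 9.17, 8.73 and 9.20 (2.89-fold), and the dendritic protein Map2 rose by 2.26. Stmn2, a microtubule regulator commonly used as a neuron marker, went the other way, from 11.78, 12.39 and 11.99 to 11.71, 11.28 and 11.66 (-0.50 ± 0.18, adjusted p = 0.0309), and so did the heavy neurofilament Nefh (-0.42). Both calls were lost without single arrays, that of Stmn2 with adjusted p = 0.163 to 0.189 without day 8 replicate 2 or day 12 replicate 2 and that of Nefh with adjusted p = 0.0515 without day 12 replicate 2, so that the falls counted 0 without day 12 replicate 2 and 1 without day 8 replicate 2. Mapt (0.07), Celf5 (-0.02) and Rbfox1 (-0.05) did not pass. Of the related genes Stmn3 and Stmn4, Stmn4 rose by 0.84, and the 2 probe sets of Stmn3 disagreed, with 1.59 in the brighter and -0.01 in the other.

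Adhesion and guidance genes rose in 23 of 28 cases with no fall (median 1.04). Dcc, the netrin receptor of commissural axons, read 7.11, 7.19 and 7.34 and then 10.54, 9.80 and 10.32 (8.03-fold), and its ligand Ntn1 rose by 1.90. Slit1 rose by 2.24 and its receptor Robo2 by 1.26. Epha3 read 6.26, 6.18 and 6.34 and then 9.82, 9.23 and 9.60. L1cam (0.13), Unc5c (0.22) and Nrp1 (0.28) did not pass.

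Genes of synapses and excitability rose in part. Of 21 measured, 13 rose, 4 of them at least 2-fold, and 1 fell (median 0.36, or 0.146 for members above the 40th percentile of level). The secretory granule gene Scg3 (2.31), the glutamate receptor subunit Gria2 (1.81) and the fusion protein Snap25 (1.58) had the smallest p. The vesicular glutamate transporter Slc17a6 rose by 0.81, while Slc32a1, the vesicular transporter of inhibitory neurons, fell by 0.29 (adjusted p = 0.213 to 0.22 without day 8 replicate 1 or day 12 replicate 2, when no member fell) and the enzymes of GABA synthesis Gad1 (-0.15) and Gad2 (0.03) did not pass. 

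Genes of mature glia did not rise as a group. In the glial list 5 of 16 rose and 2 fell (median -0.04). The rises were those of genes already active in radial glia, Nfib (2.36), Nfia (2.23), Fabp7 and the glutamate transporter Slc1a2 (1.40), and of Mbp (0.19). Gfap (-0.14), Aqp4 (0.06), Sox10 (-0.14) and Mog (-0.20) did not pass.

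Regional identity genes changed in both directions. In the forebrain and eye list 9 of 17 rose, led by Lmo3 (2.10) and Fezf1 (2.28), and Six6 fell (-0.39). In the midbrain, hindbrain and spinal cord list 11 of 26 rose and 5 fell, the falls counting 2 without day 12 replicate 2 and 3 without day 8 replicate 2 or day 12 replicate 1 or 3. Dbx1, which marks an intermediate domain of the ventricular zone, read 8.05, 8.18 and 8.00 and then 10.95, 11.39 and 11.14 (8.48-fold). The ventral genes Nkx2-2 (1.91), Nkx6-1 (1.59) and Nkx6-2 (1.37) and the dorsal midbrain gene Wnt1 (2.02) rose. Otx2 (0.19), Mnx1 (0.01) and En1 (-0.09) did not pass. Of the Hox genes of groups 1 to 5, 4 of 14 rose, with Hoxa2 the largest (1.96), and 1 fell (2 without day 12 replicate 1), Hoxd1 (-0.57). The rises numbered 2 where only the 6 arrays compared were fitted. Of groups 6 to 13 with Cdx, 5 of 26 rose and 5 fell, with Hoxc6 at 1.32 and Cdx2, a factor of the posterior streak, at -1.46. These shares are near those of all genes, and the rises counted 2 without day 8 replicate 2 and 3 without day 12 replicate 1, the falls 1 without day 12 replicate 2 and 3 without day 8 replicate 1.

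Notch pathway genes, which keep progenitors from differentiating together, rose in 14 of 25 cases, and 1 gene, the somite oscillator Hes7, fell (-0.38). Among ligands, Dll1 read 7.90, 8.21 and 8.52 and then 9.67, 9.80 and 9.88 (2.98-fold), Dll4 rose by 1.22 and Jag1 by 1.13, while Dll3 differed by 0.07. Among receptors Notch1 rose by 1.06 and Notch2 by 0.46, and Notch3 (0.17) and Notch4 (0.04) did not pass. The glycosyltransferases that tune the receptors, Mfng (1.46) and Lfng (1.20), and the target Nrarp (1.22) rose. The effector Rbpj differed by -0.01 in its brighter probe set and by -1.13 in the other.

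**Figure D4:**
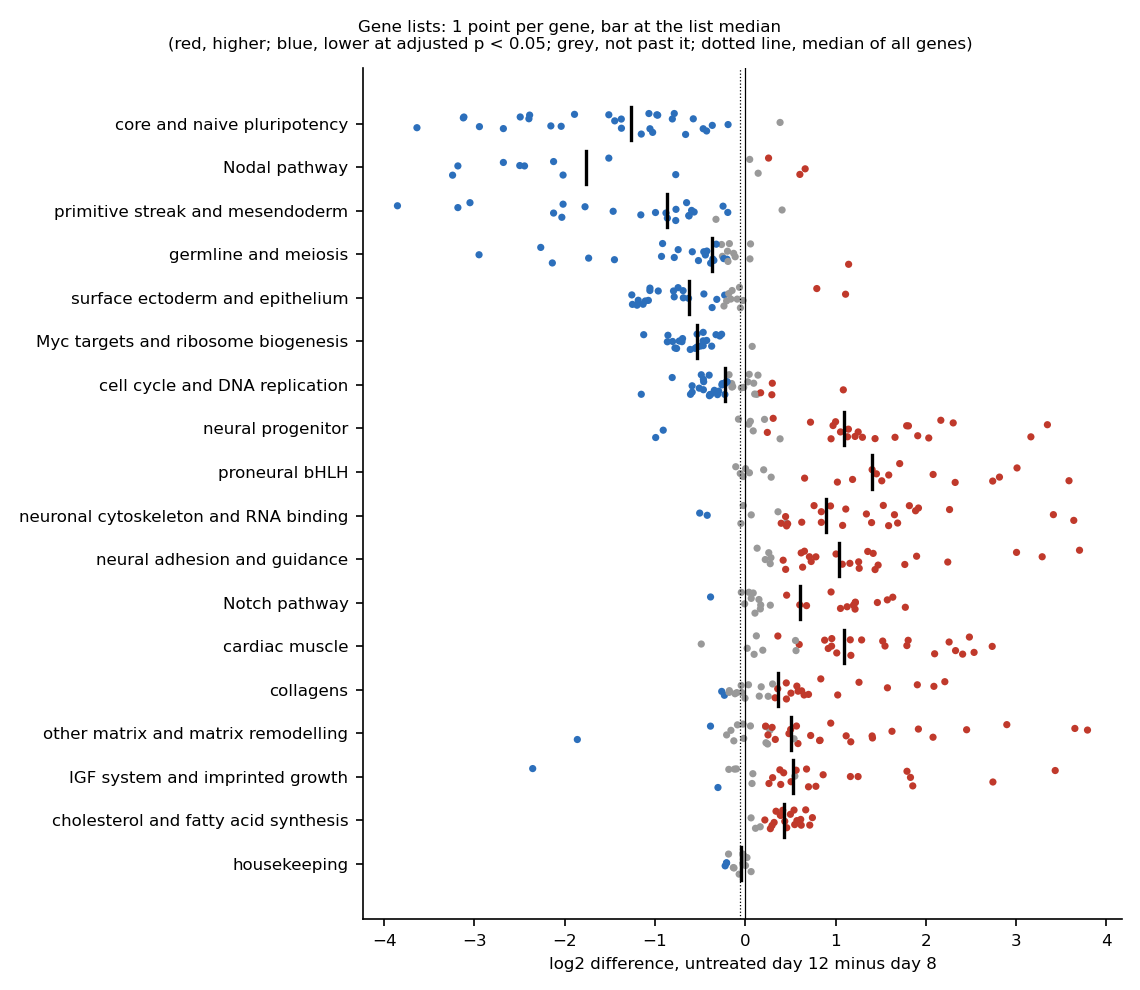
Log2 difference, day 12 minus day 8 in untreated EBs, of each measured gene in 18 lists, with 1 point per gene, red where higher and blue where lower at an adjusted p under 0.05, grey where not past it. Bars are list medians, from -1.77 for the Nodal pathway to 1.41 for the proneural genes, and the dotted line is the median of all genes, -0.06.

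Among stromal genes, the small leucine-rich proteoglycans split. Lum, Dcn, Bgn (2.02) and Fmod (1.59) rose, Podnl1 fell (-0.28) and so did Optc (-0.52, adjusted p = 0.069 to 0.105 without day 8 replicate 2 or 3 or day 12 replicate 2), and the other 10 of 16 did not pass, so that the list median was 0.00 (0.939 for members above the 40th percentile of level). Ogn, osteoglycin, read 5.09, 5.15 and 4.96 on day 8 and 6.35, 5.43 and 5.54 on day 12 (adjusted p = 0.123). It passed as a rise where only the 6 arrays compared were fitted (adjusted p = 0.0273). It also passed with a replicate block on them (adjusted p = 0.0134) and with array weights (adjusted p = 0.0444). Kera (-0.06) and Epyc (0.01), which lie in the same gene cluster as Lum and Dcn, did not pass. The rise of 4 members was thus not a rise of the family.

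Collagens rose in 17 of 31 cases and fell in 2 (median 0.36). The fibrillar chains of connective tissue changed most: Col3a1 read 8.71, 8.25 and 8.27 and then 10.82, 10.28 and 10.75 (4.63-fold), Col1a2 rose by 2.09 and Col1a1 by 1.91. The basement membrane chain Col4a2 rose by 0.45, and its partner Col4a1 (0.18) did not pass. The falls were those of Col9a3 (-0.26, adjusted p = 0.088 to 0.254 without day 8 replicate 1 or 2 or day 12 replicate 2) and Col5a3 (-0.23, adjusted p = 0.0528 to 0.247 without day 8 replicate 1 or 2 or day 12 replicate 1 or 2), so that the falls counted 0 without day 8 replicate 1 or 2 or day 12 replicate 2 and 1 without day 12 replicate 1 and 4 without day 12 replicate 3. Of the other matrix and remodelling genes 23 of 37 rose. Beside Postn and Vtn these included Spon1, an extracellular protein of the floor plate (2.90), Lox, which crosslinks collagen (2.45), and the protease Adamts5 (1.92). Mmp9, a gelatinase, fell by 1.86, while fibronectin (Fn1, 0.06) and elastin (Eln, -0.13) did not pass.

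Mesenchymal regulators rose and some smooth muscle genes fell. In the list of 34, 14 rose and 4 fell. Foxd1 (2.32), the limb and stroma factor Prrx1 (1.53), and Zeb1 (1.35) and Zeb2 (1.02), which repress epithelial genes, rose. The contractile genes went both ways: Acta2 rose by 0.63 (adjusted p = 0.069 to 0.0983 without day 8 replicate 2 or 3 or day 12 replicate 2), while Tagln read 10.68, 10.48 and 10.49 and then 10.10, 10.21 and 9.74 (-0.53, adjusted p = 0.0492, but adjusted p = 0.0696 to 0.197 without day 8 replicate 1 or 2 or 3 or day 12 replicate 1 or 3) and Cnn1 fell by 0.72. Myh11 (0.03), the myosin of mature smooth muscle, Pdgfra (-0.14) and Thy1 (-0.26) did not pass. Snai1 fell by 0.47.

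Sarcomere genes of the heart rose. Of 28 cardiac genes 21 rose, 15 of them at least 2-fold, and 0 fell (1 without day 8 replicate 2, median 1.09). Myh6, the atrial myosin heavy chain, read 7.93, 7.26 and 7.26 and then 9.78, 10.19 and 9.94 (5.59-fold, adjusted p = 8.52e-11). Tnnt2 (2.41), Myl7 (2.53), Tnni3 (1.29) and the calcium pump regulator Pln (2.33) rose with it. The cardiac transcription factors split: Mef2c (1.16) and Isl1 (0.88) rose, and Gata4 (-0.49), Nkx2-5 (0.19), Hand2 (0.56) and Tbx20 (0.12) did not pass. Of these the first 3 passed without 1 array, Gata4 with adjusted p = 0.0481 without day 8 replicate 2, Nkx2-5 with adjusted p = 0.0215 without day 8 replicate 1 and Hand2 with adjusted p = 0.00735 without day 8 replicate 1. The skeletal muscle regulator Myog fell (-0.34). 

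Blood and vessel genes went both ways. Of 27 endothelial genes, 8 rose and 3 fell (6 without day 8 replicate 2). Emcn, endomucin, read 7.18, 5.63 and 6.48 on day 8 and 9.13, 9.47 and 9.41 on day 12 (7.5-fold, adjusted p = 3.39e-06) and VE-cadherin (Cdh5) rose by 1.54, while Etv2, the factor that starts the lineage, fell by 1.23 and the receptor Flt1 by 0.88. Kdr (-0.17) and Pecam1 (0.10) did not pass. Of 15 erythroid genes 2 rose (5 without day 8 replicate 1) and 4 fell, against 18.8% and 19.9% of all genes. The embryonic globin Hbb-y read 9.69, 6.44 and 7.88 and then 10.74, 10.05 and 11.14 (2.64 ± 0.61, adjusted p = 0.00144), and the earlier globin Hbb-bh1 12.05, 9.03 and 11.19 and then 10.58, 10.72 and 11.12 (0.05 ± 0.49). The day 8 arrays of both spread over about 3 log2 units, with replicate 2 lowest. The globin genes are close copies, and their probe sets may share signal. The erythroid regulators Gata1 (-0.96) and Klf1 (-0.71) fell. Of 19 leukocyte genes 10 rose, with the signalling adaptor Tyrobp at 1.28 and the macrophage receptor Csf1r at 0.71, while the lysosomal glycoprotein gene Cd68 (-1.02) and Runx1 (-0.55, adjusted p = 0.0726 to 0.189 without day 8 replicate 1 or 3 or day 12 replicate 2 or 3), a factor of blood stem cells, fell. Of the 4 leukocyte genes above the 40th percentile of mean level 1 rose, and their median was -0.117 against 0.33 for the list.

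Endoderm genes rose and fell at shares near the 18.8% and 19.9% of all genes. Of 34 measured, 8 rose (5 without day 12 replicate 3) and 6 fell (median 0.00). Afp, the fetal serum protein, read 7.13, 6.75 and 6.61 and then 8.67, 8.36 and 8.39 (1.64 ± 0.12), and Foxa1 (1.51) and the lipoprotein gene Apoa1 (0.93) rose. Sox17 (-0.86) and Hhex (-0.77), factors of early endoderm, fell with Cer1. Hnf4a (-0.15) and Gata6 (0.17) did not pass.

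Epithelial genes fell. Of 31 measured, 20 were lower and 2 higher (median -0.63). Cdh1, E-cadherin, read 11.53, 11.60 and 11.48 and then 10.26, 10.36 and 10.22 (2.39-fold lower, adjusted p = 1.07e-08), and Epcam (-1.07), the tight junction gene Cldn7 (-1.11) and the splicing regulator Esrp1 (-1.06) fell. Several of these genes are also expressed in the epiblast. The genes that rose were Trp63 (0.79) and Tfap2a (1.11), regulators of surface ectoderm and crest, and the basal keratins Krt5 (-0.02) and Krt14 (-0.05) did not pass. Of 16 neural crest genes 10 rose and 3 fell: Ednrb, Tfap2b (1.97) and Crabp1 (1.65) rose, and Foxd3 (-0.55) and Erbb3 (-0.81) fell. Of 15 trophoblast genes 6 fell and 0 rose. The falls included Eomes, Cdx2 and Tfap2c (-1.20), which the embryo also uses, while Elf5 (-0.16) and Tpbpa (0.06) did not pass. 

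Ligands of the Wnt family went both ways. Of 30 ligands and secreted regulators 10 rose and 9 fell (5 without day 8 replicate 2), against 18.8% and 19.9% of all genes. The rises included Wnt1 (2.02), Wnt8b (1.14), Wnt7a (0.99) and Wnt7b (0.59), and the falls Wnt8a (-1.67) and Wnt3 (-0.99). Wnt8a read 8.21, 9.03 and 8.98 and then 7.19, 6.96 and 7.06. The R-spondins diverged, with Rspo2 at 1.27 and Rspo3 at -0.93. Of 17 Wnt response genes 4 rose and 7 fell, and the general target Axin2 (0.16) did not pass. 

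Genes of the fibroblast growth factor pathway and its feedback fell in 13 of 28 cases and rose in 5. The epiblast and stem cell ligands Fgf5 (-2.89) and Fgf4 (-1.45), the ERK-responsive factor Etv5 (-1.49) and the feedback inhibitors Il17rd (-1.58), Spry2 (-0.97) and Spry4 (-0.86) fell. The receptors Fgfr3 (1.35) and Fgfr2 (0.69) rose. Dusp6 (-0.15), an ERK phosphatase induced by the pathway, and Fgfr1 (0.07) did not pass.

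Retinoic acid genes rose in 12 of 20 cases and fell in 4. The carrier Crabp2 read 9.28, 9.36 and 9.39 and then 11.55, 11.78 and 11.74 (5.08-fold), and Crabp1 (1.65), the Hox cofactors Meis1 (1.66) and Meis2 (1.61), and the synthetic enzyme Aldh1a2 (1.13) rose. Of the clearing enzymes Cyp26a1 fell, Cyp26b1 rose by 0.33 and Cyp26c1 (0.12) did not pass. The receptor Rarg fell by 0.55.

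Genes of the bone morphogenetic protein (BMP) pathway showed no common direction. Of 26 Smad targets 4 rose and 6 fell (10 without day 8 replicate 2), shares near those of all genes, with a median of -0.05. The direct targets Id1 (-0.21, adjusted p = 0.334) and Id3 (0.00) did not pass, Id4 (1.13) and Id2 (0.60) rose, and Msx1 (-0.95) and Msx2 (-1.25) fell. Of 27 ligands, receptors, mediators and antagonists 9 rose and 5 fell. The receptors Bmpr1b (0.91) and Bmpr2 (0.52), the antagonists Sostdc1 (0.81) and Fstl1 (0.79) and the mediator Smad5 (0.53) rose, and the mediator Smad1 fell (-0.42). Of the ligands Bmp2 fell by 1.08, and Bmp4 (-0.01) and Bmp7 (0.24) did not pass. Of 19 genes of calcineurin and NFAT 3 rose and 2 fell (1 without day 8 replicate 1 or day 12 replicate 3). Over all genes 18.8% rose and 19.9% fell. Rcan1 (-0.12), a feedback target of NFAT, did not pass. 

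Imprinted growth regulators and the insulin-like growth factor system rose in 18 of 26 cases and fell in 2 (median 0.53). Plagl1, a regulator of other imprinted genes, read 8.33, 7.86 and 8.10 and then 11.82, 11.07 and 11.70 (10.8-fold). The binding protein gene Igfbp5 read 10.21, 9.09 and 9.74 and then 12.37, 12.50 and 12.42 (6.7-fold). Nnat (1.86), Dlk1 (1.79) and the growth inhibitor Cdkn1c (1.16) rose as well. Phlda2, which restrains the placenta and lies in the same imprinted domain as Cdkn1c, went the other way, from 13.17, 12.79 and 13.18 to 10.55, 10.95 and 10.57 (-2.35). Igf2 (0.55 ± 0.22, adjusted p = 0.0542) did not pass, but did without 1 array (adjusted p = 0.0254 without day 8 replicate 1).

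Growth and division genes were lower on day 12. Of 24 Myc targets and ribosome biogenesis genes 23 fell and 0 rose, most by less than 2-fold (median -0.54). Myc read 11.35, 10.91 and 11.38 and then 10.15, 10.26 and 9.85 (-1.12 ± 0.11, adjusted p = 6.08e-08), and the nucleolar methyltransferase Nop2 fell by 0.86. Mycn, the family member of neural progenitors, was the gene that did not pass (0.08). Of 40 cell cycle genes 24 fell and 4 rose (median -0.23). The falls included replication genes, with the helicase subunit Mcm6 at -0.51, cyclin E1 (Ccne1) at -0.81 and Mybl2 at -1.15. The mitotic genes Top2a (0.04) and Ccna2 (-0.02) did not pass. Cyclin D1 (Ccnd1) rose by 1.09 ± 0.12. In the list of cell cycle inhibitors and p53 response genes 14 of 22 rose, with cyclin D2 (Ccnd2, 1.58), Rb1 (1.16) and Cdkn2c (0.81) among the smallest p. Ccnd2 promotes rather than inhibits division and stands in the list as a D cyclin of differentiating cells. The cell death gene Pmaip1 fell by 0.93.

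Genes of cholesterol and fatty acid synthesis rose together by small amounts. Of 22 measured, 19 rose, none by 2-fold, and 0 fell (median 0.43). Dhcr7, the last enzyme of the pathway, read 10.14, 10.14 and 10.42 and then 10.93, 10.88 and 10.89 (0.67 ± 0.09, adjusted p = 2.91e-06), and Hmgcs1, an early enzyme, rose by 0.55. The change from serum-containing to serum-free medium falls at the start of this interval, and its part in these values was not tested. Of the housekeeping list 3 of 14 fell and 0 rose (median -0.05, or -0.121 after median centring), with Actb at -0.03 and Hprt at 0.06. The share of falls was near the 19.9% of all genes. Of the hypoxia and glycolysis list 5 of 23 rose (3 without day 8 replicate 1 or 3 or day 12 replicate 1 or 3) and 2 fell, against 18.8% and 19.9% of all genes. Vegfa stood at 0.80, and the enzymes Pgk1 (0.00) and Ldha (-0.01) did not pass the test. Interferon and complement genes fell in 8 of 20 cases (5 without day 12 replicate 2) and rose in 3. Irf1 gave -1.88 in its brighter probe set and -0.19 in the other.

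EBs that had been treated with FK506 and cyclosporin A until day 8 went through the same interval on 6 other arrays. There 3286 genes rose (16.5%) and 3335 fell (16.7%). Of the 648 genes at least 2-fold higher in untreated EBs, 610 (94.1%) also rose in treated EBs and 0 fell. Of the 243 at least 2-fold lower, 208 (85.6%) also fell and 0 rose. The 610 genes are 18.6% of all rises in treated EBs and the 208 are 6.24% of all falls there. Without the 2-fold limit the shares were smaller. Of all 3749 rises 2383 (63.6%) also rose in treated EBs and 32 fell. Of all 3965 falls 2158 (54.4%) also fell there and 27 rose. The change itself differed between treated and untreated EBs for 1037 genes (5.2%), 525 with a higher and 512 with a lower change in treated EBs. That count depends on single arrays: it lay between 498 and 685 without untreated day 8 replicate 2, untreated day 12 replicate 2 or 3, treated day 8 replicate 1 or 3, or treated day 12 replicate 1 or 3, and was 1724 without treated day 12 replicate 2 and 1907 without treated day 8 replicate 2. It was 224 when the 12 arrays of day 8 and day 12 alone gave the spread. With treated and untreated arrays of the same day and replicate number taken as a block, 1970 genes passed, though a pairing by number was not established.

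Part of the pluripotency genes fell less in treated EBs. Here and below, a smaller change can come from a different level on day 8 or on day 12, and which was not tested. Pou5f1 fell by 3.64 in untreated and 1.66 in treated EBs, a difference of 1.98 ± 0.34 (adjusted p = 0.00217). Of the 30 pluripotency genes 11 had a higher change in treated EBs and 0 a lower one, the former ranging from 5 without treated day 8 replicate 3 to 20 without treated day 8 replicate 2 when 1 array was left out. Cer1 fell by 3.18 in untreated and by 0.41 in treated EBs, which was the largest difference upward among the genes named by the rule (2.78, adjusted p = 0.00731). Part of the neural genes rose less in treated EBs: of the proneural list 10 of 21 and of the neuronal cytoskeleton list 9 of 30 had a lower change there. Dcx rose by 3.41 in untreated and 1.83 in treated EBs (-1.59 ± 0.24, adjusted p = 0.0006). In the cholesterol list 9 of 22 genes had a lower change in treated EBs, where the list median was 0.03, a count that ranged from 4 without treated day 12 replicate 1 to 12 without untreated day 8 replicate 3.

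Stromal genes did not move as 1 group between the treatments. Lum and Dcn rose by 3.93 and 3.97 in treated EBs, and the differences from the untreated rise did not pass (adjusted p = 0.493 and 0.986). Postn rose by 1.25 in treated against 3.79 in untreated EBs, the largest difference downward (-2.54 ± 0.71, adjusted p = 0.0384), a call lost in 9 of the 12 fits that left out 1 array (adjusted p = 0.0584 to 0.107 without untreated day 8 replicate 2 or 3 or treated day 8 replicate 1 or 3 or untreated day 12 replicate 1 or 2 or 3 or treated day 12 replicate 1 or 3). Ogn rose by 2.91 in treated EBs (day 12 arrays 8.72, 6.38 and 8.57, the difference from untreated EBs with adjusted p = 0.0502 without treated day 12 replicate 3), and Fmod by 3.47 against 1.59. The others of the 8 largest differences downward were Sim1 (-1.84), Chrna3 (-1.80), Clvs1 (-1.74), Apcdd1 (-1.70), Ppp1r17 (-1.68), Bves (-1.66) and Sim2 (-1.64), and of those upward Gabra3 (2.61), Ogn (2.20), Utf1 (2.03), Fgf5 (2.02), Gria1 (1.98), Pou5f1 (1.98) and Dppa2 (1.97), given as treated change minus untreated change. The call of Bves was lost with adjusted p = 0.0515 to 0.06 without untreated day 8 replicate 2 or treated day 8 replicate 3 or treated day 12 replicate 3, and that of Fgf5 with adjusted p = 0.0523 to 0.066 without untreated day 8 replicate 2 or treated day 8 replicate 3 or treated day 12 replicate 3. Where the 12 arrays of day 8 and day 12 alone gave the spread, Pou5f1, Cer1, Utf1, Fgf5, Gria1, Ogn, Fmod, Bves and Postn missed the threshold (adjusted p = 0.0541 to 0.162), while Dcx, Sim1, Sim2, Chrna3, Clvs1, Apcdd1, Ppp1r17, Gabra3 and Dppa2 passed. Sim1 and Sim2 are transcription factors of the hypothalamus and spinal cord, Chrna3 a nicotinic receptor subunit, Apcdd1 a Wnt inhibitor, and Gria1 and Gabra3 glutamate and GABA receptor subunits. In untreated EBs Gabra3 (-0.11), Gria1 (0.62) and Ogn (0.71) did not pass the day 8 to day 12 test, Gria1 passing without 1 array (adjusted p = 0.0283 without day 12 replicate 2). Where only the 6 untreated arrays of these days were fitted, Gria1 and Ogn passed as rises (adjusted p = 0.0413 and 0.0273). Both also passed with a replicate block on them (adjusted p = 0.0278 and 0.0134) and with array weights (adjusted p = 0.0146 and 0.0444). The miR-302 genes did not differ past the threshold, with Mir302c at -5.04 in untreated and -3.08 in treated EBs (adjusted p = 0.143).

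**Figure D5:**
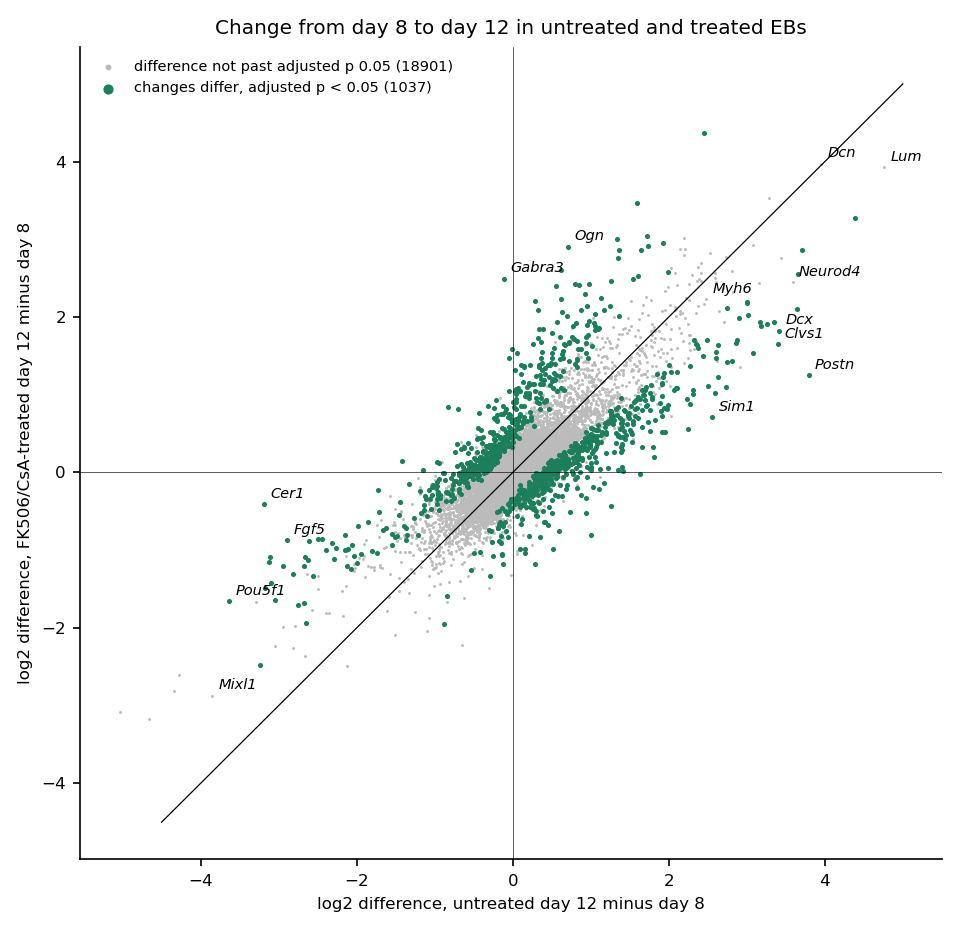
Log2 difference of day 12 minus day 8 for each of 19938 genes in untreated EBs (horizontal axis) and in EBs treated with FK506 and cyclosporin A from day 3 to day 8 (vertical axis), on arrays the 2 axes do not share, with the line of equal change. Green points are the 1037 genes whose changes differ at an adjusted p under 0.05, with Postn and Dcx below the line and Cer1, Pou5f1 and Ogn above it.

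The earlier interval from day 4 to day 6, on 6 untreated arrays with no array in common, held 4215 rises (21.1%) and 4164 falls (20.9%). Of the 648 genes at least 2-fold higher from day 8 to day 12, 141 (21.8%) had also risen and 96 (14.8%) had fallen from day 4 to day 6. Of the 243 at least 2-fold lower, 65 (26.7%) had risen and 68 (28.0%) had fallen in that interval. The widest gap to all genes among these 4 shares was that of the repeated falls, 28.0% against 20.9%. Without the 2-fold limit, 39.7% of the 3749 rises had also risen and 10.2% had fallen from day 4 to day 6. Of the 3965 falls, 31.7% had also fallen and 16.4% had risen.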

How the data were processed

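RNA of 24 cultures in 8 groups of 3 was read on Affymetrix Mouse Gene ST arrays, and 6 of them, untreated EBs of day 8 and day 12, enter the main comparison. The deposited values are log2 levels per probe set, made by the authors with RMA in Affymetrix Expression Console, per the submitters' processing notes. RMA equalises the distributions of the arrays, so a shift of all genes in one direction would be removed. The log2 scale was read from the range of the values, and the genome build of the array annotation is not given in the sources used here.

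Of 35556 probe sets, 21789 name a single gene in the platform annotation, 1621 name several and 12146 are not listed. The brightest single-symbol probe set on average stood for each of 19938 genes. Limma 3.58.1 in R 4.3.3 fitted a mean for every group to the 24 arrays, leaving 16 residual degrees of freedom, with Benjamini-Hochberg adjustment over all genes and a threshold of 0.05, and was tested on simulated data. The median SE of a difference was 0.0919. No 2 arrays were alike enough to be the same library (smallest SD of a difference between arrays 0.121), and precision is limited by how many arrays there are. Tables were made with pandas 2.3.3 in Python 3.11.15 and figures with matplotlib 3.10.9.

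Named genes were the 15 largest rises and the 15 largest falls past the threshold whose arrays did not overlap, passing over clone names, small RNAs, predicted genes and olfactory or vomeronasal receptors, the 8 largest treated minus untreated differences each way, marker genes, and members of 48 lists. Up to 6 members per list and direction with the smallest p were eligible, together with those that did not pass or went against the list. Of 1112 listed genes 1029 were measured. The comparison, the lists and their members were chosen with earlier results of these data known. MicroRNA and promoter sequences are RefSeq's for GRCm38.p6.

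Replicate numbers did not pair day 8 with day 12: the deviations of same-numbered arrays from their group means correlated at 0.0474, -0.106 and -0.273 across genes. Same-numbered treated and untreated arrays of a day correlated at 0.479, 0.553 and 0.107 on day 8, and 0.118, 0.341 and 0.253 on day 12. Differently numbered arrays of the same day were not compared. Between day 8 and day 12, differently numbered untreated arrays reached 0.322, so the values within a day do not establish a pairing. The alternatives were a filter on dim genes, quantile normalization, median centring, averaging the probe sets of a gene, a robust prior with intensity trend, array weights, fewer arrays in the fit, replicate blocks, a threshold of 0.01, and leaving out each array in turn.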

Additional observations from a re-analysis of the deposited data

Results flagged for a closer look

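For 94 of the genes named, the change from day 8 to day 12 differed between treated and untreated EBs by limma's interaction test over all 24 arrays. Values are the treated change minus the untreated change on the log2 scale, so that a positive value is a smaller fall or a larger rise in treated EBs. Of these calls 52 held in each of the 12 fits that left out 1 array and 31 held where the 12 arrays of day 8 and day 12 alone gave the spread. With a replicate block within each day 93 held, and that of Tnni3 was lost (adjusted p = 0.0523). Groups of 3 arrays are too small for a test of single outlying arrays.

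Genes of pluripotency, the epiblast and the streak were higher in this difference: Pou5f1 (1.98), Nanog (1.74), Dppa2 (1.97), Utf1 (2.03), Tdgf1 (1.47), Dppa5a (1.63), Esrrb (1.15), Tfcp2l1 (0.65), Foxh1 (0.77), Cer1 (2.78), Lefty1 (1.59), Fgf5 (2.02), Fgf4 (1.06) and Pim2 (1.5). So were the methyltransferase genes Dnmt3b (1.22) and Dnmt3l (1.40), the zinc finger genes Zfp980 (1.69), Zfp640 (1.69) and Zfp979 (1.41), and the germline genes Rnf17 (0.70) and Tdrd12 (1.29). Of the stromal genes, Ogn (2.20), Fmod (1.88), Aspn (1.29), Lox (1.91) and Podnl1 (0.41) were higher, and Postn (-2.54), Vtn (-1.09), Spon1 (-0.91) and Foxd1 (-1.30) were lower.

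Neural genes were mostly lower. Among proneural and progenitor genes these were Neurog1 (-0.76), Neurog2 (-0.99), Neurod1 (-1.38), Nhlh1 (-0.98), Ebf2 (-0.63), Ebf3 (-0.62), Olig2 (-1.06), Pou3f4 (-1.22), Rfx4 (-1.30), Sox9 (-1.08), Hes5 (-0.58), Mfng (-0.84) and Id4 (-0.74). Among genes of neurons they were Dcx (-1.59), Elavl4 (-1.54), Tubb3 (-1.03), Celf3 (-0.85), Tagln3 (-0.93), Nrn1 (-0.84), Dcc (-0.83), Ntn1 (-1.11), Slit2 (-0.96), Scg3 (-1.24), Snap25 (-0.64), Chrna3 (-1.80) and Clvs1 (-1.74), and among genes of glia or signalling receptors Slc1a2 (-0.81), Erbb4 (-1.34), Ednrb (-1.41) and Fgfr2 (-0.90). Regional genes gave Sim1 (-1.84), Sim2 (-1.64), Dbx1 (-1.55), Nkx2-2 (-1.18), Nkx6-2 (-0.81), Fezf1 (-1.40), Lmo3 (-1.01), Isl1 (-1.18), Wnt7a (-0.61) and Apcdd1 (-1.70), and the microRNA genes Mir218-1 (-1.03) and Mir219a-2 (-0.77). The receptor subunits Gabra3 (2.61) and Gria1 (1.98) went the other way.

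Of the other genes, Afp (1.22), Apoa1 (0.73), Aldh1a2 (1.12), Hhex (0.75), Hes7 (0.55), Cd68 (0.86) and Tpbpa (0.60) were higher. Lower were the synthesis genes of sterols and fatty acids Dhcr7 (-0.48), Hmgcs1 (-0.51), Lss (-0.57) and Scd1 (-0.48), the growth regulators Cdkn1c (-1.31), Igfbp5 (-1.32) and Ccnd1 (-0.68), and Tet3 (-0.66), Foxa1 (-0.96), Trp63 (-0.41), Tnni3 (-0.56), Ppp1r17 (-1.68) and Bves (-1.66).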

How the results depend on the processing

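The array number sets the precision: with 3 arrays a group, small changes of single genes turned on single arrays. Leaving out 1 array gave 3157 to 3574 rises, 3023 to 3854 falls, 616 to 684 rises and 222 to 278 falls of at least 2-fold, and 498 to 1907 genes whose change differed with treatment. Falls numbered 2494 at a threshold of 0.01 and 6761 after median centring. Treatment differences numbered 3201 with array weights, 224 with the 12 arrays alone and 1970 with a replicate block within each day, the last 2 fits chosen after seeing the data. The planned fit of only the 6 untreated arrays cannot give a treatment difference. Replicate numbers shared by day 8 and day 12 do not pair them. With a replicate block the 6 arrays alone gave 3264 rises and 2973 falls, and all 24 arrays 3884 and 4156, with 1272 treatment differences. For the 352 genes followed, 5049 of 5177 differences under an alternative kept their direction and side of the threshold, 82 fell short of it (19 genes), 46 newly passed it (20 genes) and 0 reversed. Of 1320 counts over lists 1213 stayed within 1.5 times.

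Of 660 list medians 599 moved by less than 1 SD between arrays. Genes brighter than the 40th percentile gave medians of 1.797 for proneural, 0.146 for synaptic, 0.731 for adhesion, 0.187 for forebrain, 0.122 for midbrain, -1.372 for pluripotency, -0.765 for germline, 0.939 for proteoglycan, -0.117 for leukocyte, 0.403 for crest, -0.858 for trophoblast, 0.074 for Wnt ligand, -0.339 for FGF, -0.518 for interferon and -0.068 for housekeeping genes. Median centring gave 0.967 for adhesion, 0.15 for midbrain, -0.445 for germline, 0.41 for crest, 0.01 for BMP ligand and receptor genes, 0.53 for Notch, -0.267 for Wnt response, -0.069 for Wnt ligands, -0.29 for FGF, -0.061 for DNA methylation, -0.301 for cell cycle, 0.356 for cell cycle inhibitors, -0.61 for Myc, -0.057 for hypoxia, -0.044 for calcineurin and -0.121 for housekeeping. Quantile normalization gave 0.529 for Notch, -0.032 for Wnt ligands and -0.035 for housekeeping, array weights -0.267 for FGF, and the mean of probe sets -0.056 for housekeeping. The cause was not tested, beyond the fewer genes of the filter. Without 1 array, medians ranged from 0.876 to 1.072 for adhesion, 0.288 to 0.552 for forebrain, 0.1 to 0.283 for midbrain, -1.38 to -1.194 for pluripotency, 0.242 to 0.555 for mesenchyme, -0.729 to -0.542 for surface ectoderm, 0.441 to 0.637 for crest, 0.069 to 0.131 for BMP ligand and receptor, -0.411 to -0.248 for trophoblast, 0.52 to 0.703 for Notch, -0.056 to 0.071 for Wnt ligands, -0.273 to -0.164 for FGF, 0.359 to 0.604 for the IGF list, 0.392 to 0.45 for cell cycle inhibitors, -0.011 to 0.076 for hypoxia and -0.059 to -0.041 for housekeeping genes.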
